A study of Austrofundulus limnaeus and Nothobranchius furzeri and Aphyosemion australe with 30 samples.

Results

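Chromatin accessibility was compared between African turquoise killifish (Nothobranchius furzeri) embryos in early diapause and embryos that had not yet reached the point at which diapause begins. The comparison takes 4 of the 30 samples of the series, 2 libraries of embryos 6 days into diapause (Dia 6d) and 2 pre-diapause libraries (Pre-Dia), over all 60359 consensus peaks of this species. The series profiled embryos of 4 killifish species by ATAC-seq. In the African turquoise killifish it also holds 3 libraries of embryos after 1 month of diapause (Dia 1m) and 2 of embryos that had skipped diapause and kept developing (Dev), which enter here to estimate the spread between libraries and as a second diapause-to-development difference.

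Dia 6d embryos were taken on day 6 of diapause, when their heartbeat had slowed to under 45 beats per minute. Pre-Dia embryos were at mid-somitogenesis and still carried Kupffer's vesicle, before the first heartbeat. Dia 1m embryos were taken after 1 month of diapause, and Dev embryos had a faster heartbeat, of over 60 beats per minute. Every embryo was wild type and untreated, and each library came from a pool of about 10 dissected whole-body embryos and about 25000 nuclei. Dia 6d embryos were past the end of somitogenesis and Pre-Dia embryos were not, so entry into diapause and progress through development cannot be told apart in this difference. Per the study's methods, Pre-Dia embryos came from first clutches of young parents, most of whose embryos skip diapause, so that these pools stand for embryos bound mainly for direct development rather than for the same embryos before they entered diapause. Genes near the peaks were not analysed here, so sites are described by their name, position and values.

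Diapause is a suspension of development in which killifish embryos survive the dry season in the soil, with organs already laid down but growth and heartbeat held at a low level. Kupffer's vesicle is a ciliated transient organ that sets left-right asymmetry in fish embryos, and its loss marks the approach to the stage at which an embryo either enters diapause or goes on to hatch. In ATAC-seq the Tn5 transposase inserts sequencing adapters wherever DNA is not wrapped tightly into nucleosomes, so that promoters, enhancers and other regulatory elements appear as peaks of reads.

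Values are normalized reads: the reads in a peak, scaled by a single factor for each library and not corrected for the width of the peak. The Dia 6d libraries held 3.93 and 3.22 M reads in peaks (M, megareads) and the Pre-Dia libraries 3.05 and 2.26 M, and the other 5 libraries of the species held 3.45 to 6.24 M. A median peak had 37 and 29 reads in the Dia 6d libraries and 30 and 23 reads in the Pre-Dia libraries. No value was 0, and the lowest value in every library was that of 1 read, so that 1 read may stand for none. At this depth few peaks were near that floor: 368 and 691 peaks had 3 reads or fewer in the Dia 6d libraries, against 544 and 1285 in the Pre-Dia libraries. Across peaks, which are not independent replicates, the log2 values of the 2 Dia 6d libraries had a Pearson correlation of 0.883 and those of the 2 Pre-Dia libraries of 0.837. Between the groups the correlations were 0.72 to 0.75. Among the Dia 1m libraries, replicates 2 and 3 stood furthest apart (r = 0.695).

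Early diapause embryos differed from pre-diapause embryos at 2455 peaks, of which 69.9% were more accessible in diapause when all libraries were used. In Dia 6d, 1716 peaks were higher than in Pre-Dia (2.84% of all peaks) and 739 were lower (1.22%; limma on log2(value + 1), adjusted p under 0.05). Both Dia 6d libraries lay above both Pre-Dia libraries at all 1716 higher peaks, and below them at all 739 lower peaks. Such separation is common with 2 libraries against 2, since 29.2% of all peaks had both Dia 6d libraries above and 27.9% had both below. The median difference was 1.70 on the log2 scale among the higher peaks (range 1.13 to 3.96) and -1.72 among the lower peaks (range -5.01 to -1.11). Over all peaks it was -0.01. A difference of more than 2 on the log2 scale was found at 427 higher and 205 lower peaks. Because nuclei of whole embryos were pooled, fewer cells of a type and less accessibility per cell cannot be told apart in any of these values.

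The number of peaks past the threshold depended strongly on how the spread was estimated. With 1 prior variance for all peaks in place of a prior that follows the level, 1 peak passed, and when 1 of the 4 compared libraries was left out the count was 49 or 35 (Dia 6d replicate 1 or 2) and 575 or 206 (Pre-Dia replicate 1 or 2). Without Dia 6d replicate 1 the majority turned, with 14 higher and 35 lower peaks, as it did without Dia 6d replicate 2, with 15 higher and 20 lower, whereas 518 of 575 were higher without Pre-Dia replicate 1 and 187 of 206 without Pre-Dia replicate 2. Tested by edgeR on the recovered reads of the 9 libraries, 2462 peaks passed, of which 2251 were among the 2455. An exact permutation test of 2 libraries against 2 cannot go below p = 0.333, so each call rests on the spread shared across peaks and groups.

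**Figure D1:**
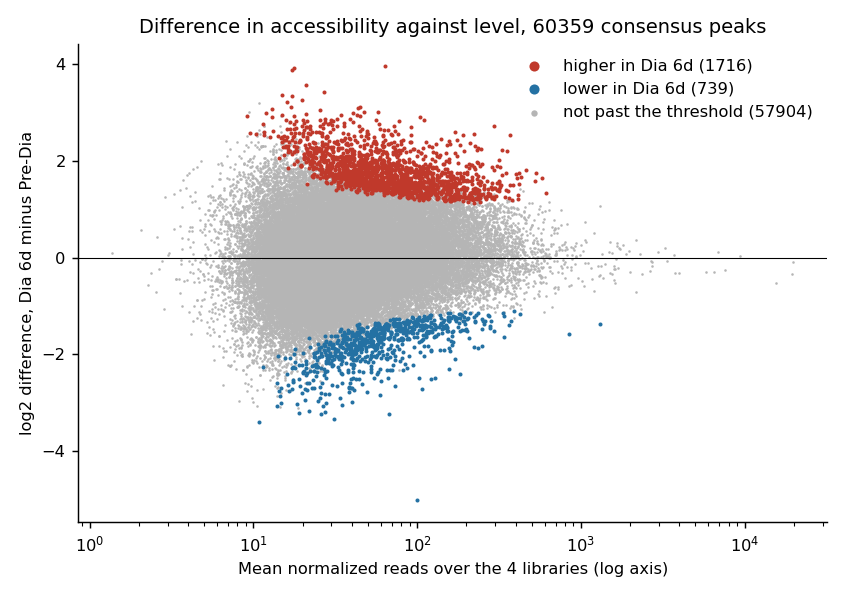
The log2 difference, Dia 6d minus Pre-Dia, is plotted against the mean normalized reads of the 4 libraries on a log axis, with 1 point per consensus peak. The 1716 higher peaks (red) and 739 lower peaks (blue) form the edges of the cloud, and at low levels larger differences stay inside the grey peaks that did not pass the threshold.

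Peaks past the threshold were stronger and wider than the average consensus peak. Higher peaks had a median level of 62.5 normalized reads and lower peaks of 55.2, against 33.5 over all peaks. Their median widths were 493.5 and 525 bp, against 421 bp over all peaks. The share called moved with the level, which also sets the error of a difference. Among the tenth of peaks with the fewest reads, 0.232% were higher and 0.149% were lower, with a median standard error of 0.75 on the log2 scale. Among the tenth with the most reads, 6.36% were higher and 2.14% were lower, with a median standard error of 0.35. Width and level go together, so all peaks were split by level into 3 equal groups. Among the strongest peaks, 5.09% of the wider ones were called higher, against 7.93% of the narrower ones. In the middle group the shares were 1.57% of the wider and 3.01% of the narrower peaks, and in the weakest group 0.70% and 0.77%.

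The peak with the largest increase was Nfur_peak_26958, a 684 bp peak on NC_029657.1 (7063762 to 7064445 in the assembly Nfu_20140520). It had 120.2 and 119.6 normalized reads in Dia 6d, against 9.94 and 4.50 in Pre-Dia. The 2 Dia 6d libraries were nearly equal, and both lay far above either Pre-Dia library. The difference was 3.96 ± 0.46 on the log2 scale (SE, adjusted p = 7.23e-05), and the ratio of the group means was 16.6. In the libraries that were not compared, this peak had 95.5, 180.7 and 52.4 normalized reads in Dia 1m, against 55.1 and 48.3 in Dev. No order of these 5 values against Pre-Dia is read, since this peak was chosen for its Dia 6d and Pre-Dia values.

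The next 2 peaks rested on almost no reads in Pre-Dia. Nfur_peak_44364, of 217 bp, had 37.7 and 30.2 normalized reads in Dia 6d, against 1.10 and 1.502 in Pre-Dia (1 read in each library). Nfur_peak_7784, of 152 bp, had 36.8 and 29.1 in Dia 6d, against the same 1.10 and 1.502 in Pre-Dia. Both sites were thus at the floor in Pre-Dia and at about an average level in Dia 6d. Their differences were 3.92 ± 0.66 and 3.88 ± 0.75 on the log2 scale (SE, adjusted p = 0.00249 and 0.0057). In Dev, Nfur_peak_44364 had 25.8 and 25.5 normalized reads, against 29.4, 12.7 and 11.7 in Dia 1m. Nfur_peak_7784 had 18.2 and 7.38 in Dev, against 18.9, 22.0 and 9.94 in Dia 1m. From the reads alone, the ratio of Dia 6d to Pre-Dia at Nfur_peak_44364 was 27.0 (95% exact binomial interval 7.19 to 227, counting error only), and at Nfur_peak_7784 it was 26.2 (6.97 to 221). As 1 read may stand for none, the upper limits are not bounds, and only the lower limits are read.

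The other 5 of the 8 largest increases followed the same form, with Dia 6d values near the median peak and Pre-Dia values of a few reads. Nfur_peak_45895 had 41.3 and 36.9 normalized reads in Dia 6d, against 1.10 and 4.50 in Pre-Dia. Nfur_peak_13316 had 57.4 and 41.4 in Dia 6d, against 7.73 and 1.502 in Pre-Dia. Nfur_peak_58895 had 26.0 and 30.2 in Dia 6d, against 2.21 and 1.502 in Pre-Dia. The list admits only peaks whose groups do not overlap. At each of the 5 peaks the Pre-Dia libraries, with few reads, differed from each other more as a ratio than the Dia 6d libraries did. Nfur_peak_30895 had 33.2 and 31.3 in Dia 6d, against 3.31 and 1.502 in Pre-Dia. Nfur_peak_35422 had 30.5 and 41.4 in Dia 6d, against 1.10 and 6.01 in Pre-Dia. The differences of these 5 peaks ran between 3.25 and 3.56 on the log2 scale, with adjusted p between 0.00232 and 0.0144. In Dev, Nfur_peak_30895 had 34.6 and 28.9 normalized reads, Nfur_peak_45895 had 29.3 and 20.8, and Nfur_peak_13316 had 35.2 and 16.8. Nfur_peak_58895 had 8.79 and 15.4 in Dev, and Nfur_peak_35422 had 8.20 and 8.72. Of all 1716 higher peaks, 17 had 3 reads or fewer in both Pre-Dia libraries, so most of the increases were at sites with measurable reads in at least 1 Pre-Dia library.

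The largest difference of all was at a peak lower in Dia 6d. Nfur_peak_20590, 515 bp wide on NC_029654.1 (58030422 to 58030936), had 2.69 and 8.94 normalized reads in Dia 6d, against 190.0 and 199.7 in Pre-Dia. The 2 Pre-Dia libraries agreed closely, and Dia 6d had 3 and 8 reads. The difference was -5.01 ± 0.51 on the log2 scale (SE, adjusted p = 7.76e-06), with the Pre-Dia mean 33.5 times that of Dia 6d. This was also the single peak that passed with 1 prior variance for all peaks, and it passed under all 24 alternative settings. It had 17.8, 9.27 and 24.4 normalized reads in Dia 1m, against 42.8 and 49.7 in Dev. Every Dia 1m value lay below both Dev values. The order against Pre-Dia is again not read, because of how the peak was chosen.

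Nfur_peak_52280 had the smallest standard error among the other 7 largest decreases, with 7.18 and 19.0 normalized reads in Dia 6d, against 97.2 and 145.7 in Pre-Dia. Its difference was -3.23 ± 0.47 on the log2 scale (SE, adjusted p = 0.00103). Nfur_peak_23549 had 2.69 and 7.82 in Dia 6d, against 64.1 and 49.6 in Pre-Dia. Both were low in every diapause library, since Nfur_peak_52280 had 13.9 to 20.8 and Nfur_peak_23549 had 8.11 to 17.2 normalized reads in Dia 1m, against 49.7 and 52.7, and 38.3 and 39.8, in Dev.

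At Nfur_peak_34296 the Dia 6d libraries were at the floor of 1 read each (0.897 and 1.12 normalized reads), against 26.5 and 15.0 in Pre-Dia. The Pre-Dia to Dia 6d ratio from the reads was 21.7 (95% exact binomial interval 5.57 to 187, counting error only, of which again only the lower limit is read), and the adjusted p was 0.0414. Nfur_peak_14291 had 5.38 and 3.35 in Dia 6d, against 32.0 and 69.1 in Pre-Dia. The Dia 6d replicates differed from each other at Nfur_peak_20590, Nfur_peak_23549 and Nfur_peak_52280, and by more as a ratio at the remaining 3 peaks. Nfur_peak_21404 had 10.8 and 1.12 in Dia 6d, against 40.9 and 51.1 in Pre-Dia. Nfur_peak_59035 had 5.38 and 1.12 in Dia 6d, against 45.3 and 24.0 in Pre-Dia. Nfur_peak_43535 had 0.897 and 8.94 in Dia 6d, against 46.4 and 31.5 in Pre-Dia. That the groups did not overlap was a condition of this list, here as for the increases. The differences of these 5 peaks ran from -3.39 to -3.18 on the log2 scale. In Dia 1m, Nfur_peak_21404 had 13.6, 13.9 and 17.2 normalized reads, against 8.20 and 29.5 in Dev. Nfur_peak_59035 had 32.5, 8.11 and 22.6 in Dia 1m, against 21.1 and 14.8 in Dev. Nfur_peak_43535 had 19.9, 8.11 and 15.4 in Dia 1m, against 17.0 and 20.8 in Dev. At each of those, Dia 1m and Dev overlapped. At Nfur_peak_34296 and Nfur_peak_14291 every Dia 1m value lay below both Dev values.

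**Figure D2:**
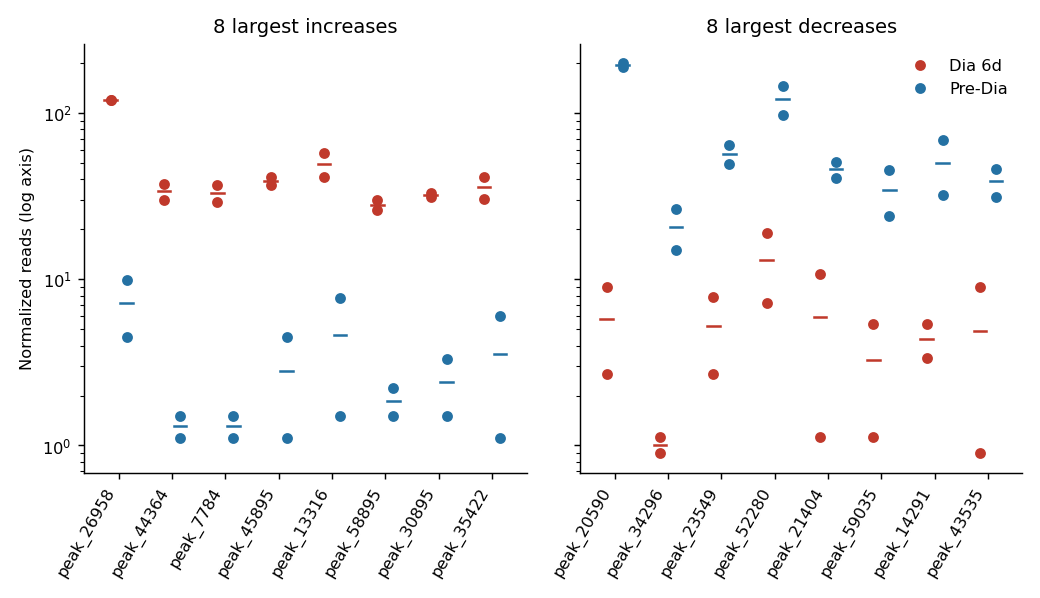
Normalized reads on a log axis are shown for the 8 peaks with the largest increase (left) and the 8 with the largest decrease (right), with 1 point per library and a bar at the group mean (n = 2 each; Dia 6d red, Pre-Dia blue). No groups overlap, and the low group often sits at a few reads, down to 1.10 in Pre-Dia at Nfur_peak_44364 and 0.897 in Dia 6d at Nfur_peak_34296.

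The called peaks named for their level had smaller differences and smaller standard errors than those named for their difference. The contrast in size follows from how the lists were chosen. The 2 strongest higher peaks lie 16.9 kb apart on NC_029657.1. Nfur_peak_27497, 1721 bp wide (17407433 to 17409153), had 812.0 and 935.6 normalized reads in Dia 6d, against 321.5 and 367.9 in Pre-Dia. Nfur_peak_27501, 1086 bp wide (17426060 to 17427145), had 826.3 and 940.0 in Dia 6d, against 300.5 and 261.3 in Pre-Dia. Both sites were open in Pre-Dia, and the Dia 6d mean was 2.54 times the Pre-Dia mean at the first of them and 3.14 times at the other. Their differences were 1.34 ± 0.35 and 1.65 ± 0.35 on the log2 scale (SE, adjusted p = 0.0282 and 0.0109). Of the 3 consensus peaks between them, Nfur_peak_27499 was also higher (1.59 on the log2 scale, adjusted p = 0.0179), whereas Nfur_peak_27500 had 79.0 and 82.7 in Dia 6d, against 33.1 and 15.0 in Pre-Dia (adjusted p = 0.0516), and Nfur_peak_27498 had an adjusted p of 0.153. In Dev, Nfur_peak_27497 reached 1006 and 613.4 normalized reads, a range that contains both Dia 6d values.

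Nfur_peak_43495 had 831.7 and 805.9 normalized reads in Dia 6d, against 278.4 and 214.7 in Pre-Dia. Nfur_peak_26968, which lies 643 kb from the peak with the largest increase, had 741.1 and 835.0 in Dia 6d, against 281.7 and 246.3 in Pre-Dia. Both differences were above 1.5 on the log2 scale, at 1.74 ± 0.37 and 1.57 ± 0.38 (SE, adjusted p = 0.0112 and 0.0195).

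The strongest lower peak was Nfur_peak_49170 on the unplaced sequence NW_015443924.1, 1253 bp wide. It had 674.7 and 791.4 normalized reads in Dia 6d, against 1954 and 1829 in Pre-Dia. Its level was high in Dia 6d too, although both Dia 6d values lay far below both Pre-Dia values. The difference was -1.37 ± 0.35 on the log2 scale (SE, adjusted p = 0.0266), and the Dia 1m values of 798.5 to 1098 normalized reads also lay below the Dev values of 1483 and 1647. Nfur_peak_51844 had 367.0 and 484.0 in Dia 6d, against 1202 and 1339 in Pre-Dia. It was the exception among the 4 strongest lower peaks in the later libraries, with 1015, 634.8 and 1701 normalized reads in Dia 1m, against 599.3 and 893.9 in Dev, which overlapped. Nfur_peak_10245 had 253.9 and 263.8 in Dia 6d, against 658.4 and 519.5 in Pre-Dia, and its adjusted p of 0.0458 was close to the threshold. Nfur_peak_24460 had 246.7 and 245.9 in Dia 6d, against 534.7 and 531.5 in Pre-Dia (adjusted p = 0.0476). At this peak the replicates were almost equal within Dia 6d and within Pre-Dia. It had 120.7 to 165.4 normalized reads in Dia 1m, against 447.0 and 546.2 in Dev.

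Higher peaks tended to have higher neighbours along the sequence. Of the consensus peaks next to a higher peak, 17.7% were themselves higher, against 2.97% over all neighbours. Where the gap between the pair was under 1 kb the share was 28.0%, and such pairs may be parts of 1 element. It was still 23.1% at gaps of 1 to 5 kb, 14.0% at 5 to 20 kb and 12.04% at 20 to 100 kb, against 2.73 to 3.78% over all neighbours at those gaps. At gaps over 100 kb the share was 12.3% (10 of 81 neighbours), against 2.46%, so it stayed above that of all neighbours at every distance. Lower peaks were more scattered. Of the neighbours of lower peaks, counted in the same way, 8.24% were lower at gaps under 1 kb. The share was 2.17% at 1 to 5 kb, 2.26% at 5 to 20 kb and 2.17% at 20 to 100 kb. The background was 1.12 to 1.29% at all of these distances. At gaps over 100 kb, 0 of 48 neighbours of lower peaks were lower, against 1.46% over all neighbours. Of the 3386 neighbours of higher peaks at any distance, 2 were lower, against 1.22% over all neighbours. These shares describe positions, and no test was made of them, since neighbouring peaks are not independent.

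Unbroken runs of called peaks held 527 of the 1716 higher peaks in 227 runs of 2 or more, and 39 of the 739 lower peaks in 19 runs. The longest run was of 8 higher peaks within 30.9 kb of NC_029658.1 (43715625 to 43746541), from Nfur_peak_31407 to Nfur_peak_31414. Summed over the run, the Dia 6d libraries had 665.7 and 705.3 normalized reads, against 192.2 and 174.2 in the Pre-Dia libraries. The replicates of each group lay close together in these sums, but the run was drawn from peaks called with these same libraries. The 8 differences ran between 1.54 and 2.86 on the log2 scale. Single members varied more. Nfur_peak_31409 had 30.5 and 64.8 normalized reads in Dia 6d, and Nfur_peak_31410 had 58.6 and 33.0 in Pre-Dia. At the last peak of the run, Nfur_peak_31414, Dia 6d had 54.7 and 60.4 normalized reads, against 6.63 and 7.51 in Pre-Dia. At the first, Nfur_peak_31407, Dia 6d had 109.5 and 106.2, against 18.8 and 19.5 in Pre-Dia. Those were the sites of the run with the largest differences, 2.86 ± 0.52 and 2.43 ± 0.42 (SE, adjusted p = 0.00377 and 0.00274). All 16 flanking peaks had a positive difference (0.18 to 2.07 on the log2 scale), against a median of -0.01 over all peaks. Of these 16, 3 were called higher, against 2.84% of all peaks, and the highest adjusted p was 0.87. The furthest of them lay 133 kb from the start of the run. The same sum was 557.2, 851.4 and 309.1 normalized reads in Dia 1m, against 567.7 and 333.5 in Dev, so that Dia 1m and Dev overlapped here.

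**Figure D3:**
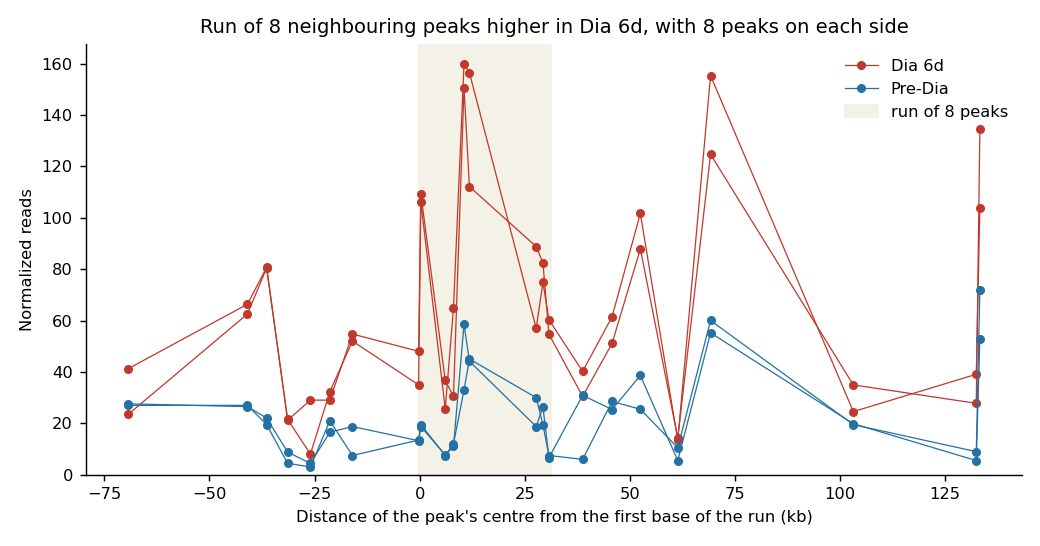
Normalized reads of the 8 peaks of the longest run (shaded) and of 8 consensus peaks on each side are plotted against the distance of each peak's centre from the start of the run in kb, with 1 line per library (Dia 6d red, Pre-Dia blue). Within the run both Dia 6d libraries lie above both Pre-Dia libraries at every peak, as at all 1716 higher peaks from which the run was drawn. Most flanking peaks lie the same way, as do 29.2% of all peaks.

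The second run named, the one with the largest summed difference among 4 runs of 5 peaks, covered 102.6 kb of NC_029665.1 (26590433 to 26692985), and Nfur_peak_44364, with its 1 read in each Pre-Dia library, lies 152.8 kb beyond its end. Summed over the 5 peaks, Dia 6d had 1145 and 1281 normalized reads, against 298.3 and 351.4 in Pre-Dia. Its strongest member, Nfur_peak_44354, had 405.5 and 467.2 in Dia 6d, against 131.5 and 195.2 in Pre-Dia. At 3 of the 5 peaks Dia 1m was also higher than Dev, whereas none of the 8 peaks of the first run passed the threshold in that comparison, in which the lowest adjusted p among them was 0.154. Nfur_peak_44356 was the clearest, with 106.0, 137.9 and 80.4 normalized reads in Dia 1m, against 25.2 and 24.8 in Dev (2.03 ± 0.35 on the log2 scale, SE, adjusted p = 0.000643).

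The longest run of lower peaks had 3 members within 21.4 kb of NC_029661.1 (44437077 to 44458478). At its middle member, Nfur_peak_37754, 1233 bp wide, Dia 6d had 30.5 and 41.4 normalized reads, against 194.4 and 220.7 in Pre-Dia. Nfur_peak_37755 had 11.7 and 11.2 in Dia 6d, against 54.1 and 73.6 in Pre-Dia, and Nfur_peak_37753 had 12.6 and 7.82 in Dia 6d, against 36.5 and 55.6 in Pre-Dia. All 3 sites had a fraction of the Pre-Dia level in Dia 6d, with differences between -2.51 and -2.07 on the log2 scale. The second run named, the one with the largest summed difference among 18 pairs, was 79.2 kb from end to end on NC_029650.1. There Nfur_peak_6824 had 11.7 and 23.5 in Dia 6d, against 109.4 and 96.1 in Pre-Dia, and Nfur_peak_6823 had 4.49 and 12.3 in Dia 6d, against 55.2 and 36.0 in Pre-Dia. In Dia 1m, Nfur_peak_37754 had 59.1 to 79.5 normalized reads, below the 131.8 and 138.9 in Dev. At every other member of these runs Dia 1m and Dev overlapped. Nfur_peak_6824, for one, had 27.3, 23.2 and 16.3 in Dia 1m, against 20.5 and 22.1 in Dev.

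Higher peaks made up a larger share of the peaks on the 19 placed chromosomes than of those on the other sequences of the assembly. Of the 46951 peaks on chromosomes, 3.41% were higher and 1.18% were lower. Of the 13408 peaks on the other 3298 sequences of the assembly, 0.85% were higher and 1.39% were lower. The share of higher peaks was thus 4.01 times as large on chromosomes, a description with no test, since peaks are not replicates. It rested on few calls when a Dia 6d library was left out, at 0.0256% on chromosomes, against 0.0149% elsewhere, without replicate 1, and 0.0277%, against 0.0149%, without replicate 2. The contrast was present in each of the 3 groups of level. Among the weakest peaks 0.923% were higher on chromosomes, against 0.262% on the other sequences. The shares were 2.70% on chromosomes, against 0.718% elsewhere, among peaks of middle level, and 6.51%, against 1.66%, among the strongest peaks. The whole distribution was shifted too, with a median difference of 0.05 on the log2 scale on chromosomes and -0.18 elsewhere. In reads, the other sequences took 23.0 and 23.7% of the reads in peaks in Dia 6d, against 26.7 and 27.0% in Pre-Dia. The same share was 26.3, 23.0 and 30.3% in Dia 1m, against 21.4 and 23.7% in Dev, which overlapped. The part of this share of reads in the result was not tested.

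Chromosomes also varied among themselves. The share of higher peaks ran between 1.95% on NC_029649.1 and 5.00% on NC_029665.1, the sequence of the second run. The share of lower peaks ran between 0.426% on NC_029667.1 and 1.76% on NC_029655.1, and all 19 chromosomes had more higher than lower peaks.

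**Figure D4:**
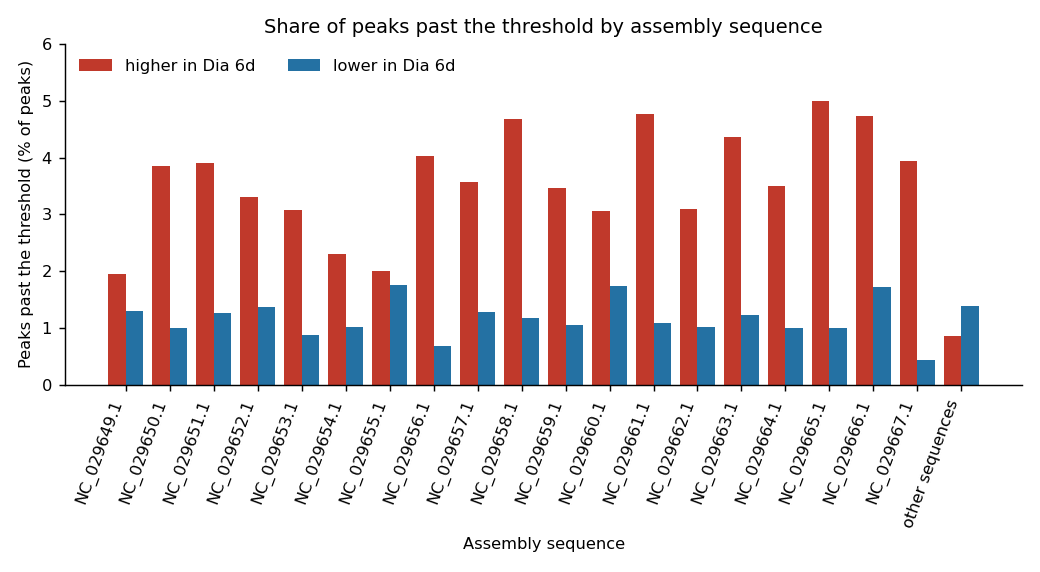
The share of consensus peaks past the threshold, in percent of the peaks of each sequence, is shown for the 19 chromosomes of the assembly and for all other sequences together (higher in Dia 6d red, lower in Dia 6d blue). Each chromosome has more higher than lower peaks, whereas the other sequences have 0.85% higher and 1.39% lower peaks.

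The levels of the called peaks in the remaining libraries of the species place them beside later diapause and continued development. The Dev and Dia 1m differences from Dia 6d or Pre-Dia share libraries with the calls, so only levels are given. At the 1716 higher peaks the median level was 96.9 and 96.1 normalized reads in Dia 6d, against 29.8 and 28.5 in Pre-Dia. It was 77.7, 108.9 and 53.3 in Dia 1m, against 67.4 and 49.7 in Dev. Dia 1m and Dev overlapped at these peaks, which were chosen for low Pre-Dia values, so that no order against Pre-Dia is read from them. At the 739 lower peaks the median level was 25.1 and 24.6 in Dia 6d, against 82.9 and 87.1 in Pre-Dia. It was 29.4, 29.0 and 34.3 in Dia 1m, against 51.6 and 58.4 in Dev. All 3 Dia 1m medians lay below both Dev medians, and these peaks were likewise chosen for their Dia 6d and Pre-Dia values. Over all peaks the medians of the 9 libraries lay between 32.2 and 34.5.

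**Figure D5:**
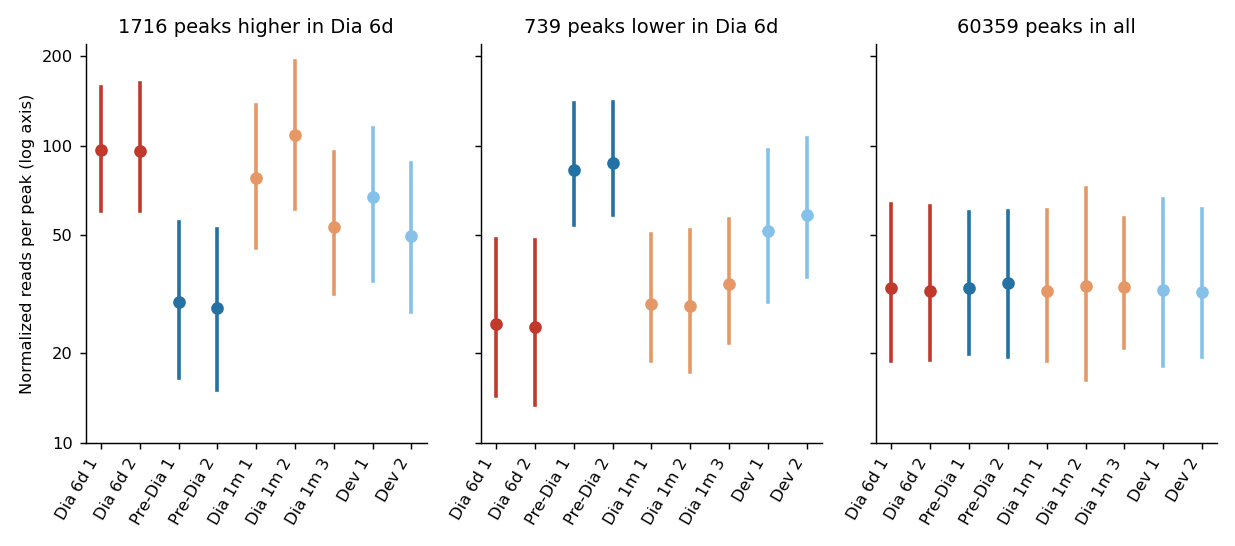
Median normalized reads per peak (points) and the range from the lower to the upper quartile of the peaks (lines) are shown on a log axis for each of the 9 libraries, at the 1716 peaks higher in Dia 6d, the 739 lower peaks and all peaks. At the higher peaks Dia 1m (53.3 to 108.9) and Dev (49.7 to 67.4) overlap, at the lower peaks all Dia 1m medians lie below both Dev medians, and over all peaks the libraries are level.

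Dia 1m minus Dev is a difference between diapause and development that shares no library with the Dia 6d minus Pre-Dia difference, although all 9 libraries set the spread by which peaks were called in both. It asks whether the peaks called at day 6 were also different later. Of all peaks, 3.63% were higher and 4.48% were lower in Dia 1m than in Dev. The called peaks were stronger than the average peak, and shares of all peaks at a matched level were not computed. Among the 1716 higher peaks, 292 were higher in Dia 1m (17.0%) and 30 were lower (1.75%), with a median difference of 0.44 on the log2 scale. Among the 739 lower peaks, none was higher by limma, 229 were lower (31.0%), and the median difference was -0.86, against -0.01 over all peaks. In the lower peaks, 67.9% had all 3 Dia 1m libraries below both Dev libraries, against 21.4% of all peaks. In the higher peaks, 32.3% had all 3 Dia 1m libraries above both Dev libraries, against 16.5% of all peaks. With separate fits, which share no estimate of the spread, the 6522 higher peaks of the 4-library fit had a median of 0.22, with 6.75% higher in Dia 1m (1191 of all 60359 peaks), and its 3944 lower peaks had a median of -0.55, with 8.85% lower in Dia 1m (1328 of all 60359 peaks). At the higher peaks the median also moved with single libraries, each of which changes the set of called peaks too: it was 0.05 without Dia 1m replicate 2 (4357 peaks), 1.24 and 1.67 without Dia 6d replicate 1 and 2 (14 and 15 peaks), 0.84 without Dev replicate 1 and 0.71 without Pre-Dia replicate 2. The shares moved too. Without Dia 1m replicate 2, 10.6% of the higher peaks were higher in Dia 1m and 7.14% lower, against 7.31% and 9.59% of all peaks. Without Dia 1m replicate 3 these were 27.7% and 2.40%, against 7.33% and 7.14% of all peaks. The sequences behaved differently in this pair of groups: 3.11% of the peaks on chromosomes were higher in Dia 1m and 4.99% were lower, whereas 5.42% on the other sequences were higher and 2.67% were lower.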

How the data were processed

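The authors trimmed ATAC-seq reads with Trim Galore 0.4.1, aligned them with Bowtie2 2.2.5 to Nfu_20140520, took out duplicates (Picard 2.22.1) and reads of low mapping quality (SAMtools 1.5), shifted reads for Tn5 with deepTools 3.2.1, called peaks with MACS2 2.1.1.20160309 and merged them into consensus peaks. The deposited values, named RPKM, are a signal of another kind: every value (100%) was a whole multiple of that of 1 read within a tolerance of 0.01, so that they are reads divided by 1 factor per library. Coordinates are as in the table.

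The main test was limma 3.58.1 (R 4.3.3) on log2(value + 1) over all 9 libraries in 4 groups with a trended prior, two-sided, with Benjamini-Hochberg adjustment over 60359 peaks and a threshold of 0.05. No filter was applied. Folds on this scale understate the change of weak peaks. The spread had 5 residual degrees of freedom. The recovered counts were also tested with edgeR 4.0.16, which called 2462 peaks, and with DESeq2 1.42.0. The fits were also run on simulated data with the same dispersion at all peaks, and the criterion for passing was changed after a result was seen. Replicate numbers come from the labels, which do not say whether same-numbered or same-group libraries are separate clutches, so p-values measure the spread between these samples. Intervals cover counting error only.

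Named peaks were the 8 largest increases and 8 largest decreases among called peaks without overlap between groups, the 4 strongest higher and 4 strongest lower called peaks, and the 2 longest runs of neighbouring called peaks per direction, with ties settled by the larger sum of absolute log2 differences. Nfur_peak_27498 to Nfur_peak_27500 were named after their values were seen. The comparison and these lists were chosen with earlier results of these data known. Columns of other samples in the table numbered 0. Gene lists and motifs that had been prepared were not analysed here, because no genome or annotation of this assembly was used.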

Additional observations from a re-analysis of the deposited data

How the results depend on the processing

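The 2455 peaks past the threshold (69.9% of them higher in Dia 6d) were recounted under 24 alternatives, of which leaving out the Dia 1m libraries was chosen after seeing the data. The count stayed within 1.5 times under TMM scaling (2725), scaling to total reads in peaks (2544), pseudocounts of 0.5 (2333) and 8 (2892), a filter at a mean of 10 normalized reads (2512), thinning to the shallowest library (1744), and edgeR (2462) and DESeq2 (3056) on 9 libraries. In those settings the share of called peaks that were higher ran from 61.3% (scaling to total reads in peaks) to 70.4% (pseudocount 0.5). The count rose to 4094 under quantile normalization, where 59.8% were higher, and to 10466 with the 4 compared libraries alone, where 62.3% were. It was 10791 with edgeR and 4943 with DESeq2 on those 4, and 11023 without Dia 1m. It was 1 without a trend in the prior variance, with 11232 peaks at an unadjusted p under 0.05 against 12297. Leaving out 1 library gave 35 to 8230 peaks: 1227, 6736 and 8230 without Dia 1m replicate 1, 2 and 3, and 1235 and 1309 without Dev replicate 1 and 2, beside the compared libraries given above. The cause of these changes was not tested. With a replicate block 7416 peaks passed (5001 higher, 2415 lower), including all 2455. Only Dia 1m has a replicate 3, so the block fits that library exactly and takes it out of the spread. Across peaks, the deviations of same-numbered Dia 6d and Pre-Dia libraries from their group means had r = 0.04. With 2 libraries per group this is a single contrast, so it cannot tell whether the numbers pair the samples.

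None of the 24 largest and strongest named peaks changed direction. In each of the 19 settings that kept the 4 compared libraries and the trended prior, 19 of them stayed past the threshold. This holds as far as the setting gave an adjusted p. DESeq2 gave an adjusted p for 13 of the 24 with 9 libraries and for 11 with the 4 compared libraries, and the filter kept 23. Every peak without one was among the 8 largest increases or the 8 largest decreases, with few reads in 1 of the groups. For those peaks DESeq2 made no call. Without Dia 6d replicate 1 and 2, 3 and 5 of the 24 passed, without Pre-Dia replicate 1 and 2, 10 and 8, and without the trend 1, so that 1 peak passed in all 24 settings. The larger share of higher peaks on chromosomes than on other sequences, recomputed after seeing the data, was 2.56 percentage points and stayed positive wherever any higher peak was called, between 0.01 and 8.43. The median Dia 1m minus Dev difference at higher peaks was 0.22 with separate fits of 4 and 5 libraries. At lower peaks it was -0.55 with those fits and -0.73 under quantile normalization, and ran from -1.17 to -0.59 with 1 library left out. At higher peaks it ran from 0.046 (without Dia 1m replicate 2) to 1.67 (without Dia 6d replicate 2) with 1 library left out. The median standard error of a difference was 0.75 on the log2 scale in the tenth of peaks with the fewest reads and 0.35 in the tenth with the most.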
